A study of Danio rerio with 6 samples.

Results

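Thrombospondins are secreted, calcium-binding glycoproteins that assemble into multimers and act at the cell surface and in the extracellular matrix. All genes whose symbol starts, in either case, with thbs and a digit were followed in RNA-seq counts of 2 cell populations sorted from zebrafish larvae. That gave 8 of the 35117 Ensembl gene IDs counted. They were 2 genes with the symbol THBS1, thbs2a, thbs2b, 2 genes with the symbol THBS3 and 2 with the symbol THBS4. The names used give no paralog letter for THBS1, THBS3 and THBS4, so the Ensembl ID tells each pair apart. The family was selected on the measured difference between these groups, because 4 of its 8 genes had passed the test for higher counts in the dextran-positive cells. Values of that contrast are therefore a description of the members, with no test of the family drawn from them.

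The lysosome rich enterocytes (LRE, n = 3 libraries) were positive for both cldn15la-GFP, a reporter of intestinal epithelium, and a fluorescent Alexa Fluor 568 dextran. Intestinal epithelial cells (IEC, n = 3 libraries) were positive for cldn15la-GFP. All larvae were of the EK strain, labelled wild type besides the reporter, and 6 days past fertilization; they had been gavaged with 1 to 2 nl of the dextran at 2.5 mg/ml 24 hours before dissociation. Whether the IEC gate left out cells holding dextran is not stated. Nothing in the labels ties a library to its own batch of larvae. Every p-value here therefore rests on variation among 3 libraries a group that could be technical.

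Total counts lay between 42321698 and 53250871 in the LRE libraries and between 39590129 and 52824999 in the IEC libraries. LRE library 1 stood apart: reads fell on 19396 genes there and on 22974 to 25610 genes in each other library. The labels were checked against markers. Summed endocytic and lysosomal LRE markers (11 matched genes, among them the legumain gene LGMN and the cathepsin H gene CTSH, with the cathepsin gene ctslb, picked out later for its values, at 0 in every library) reached 7244 to 16172 CPM in LRE and 670 to 776 CPM in IEC. CPM are counts per 1000000 counts of a library's total scaled by TMM, a trimmed-mean normalization. Summed enterocyte markers (13 matched genes, with cldn15la and the villin gene VIL1 the most abundant) reached 5856 to 7510 CPM in LRE and 7838 to 10282 CPM in IEC.

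THBS1 and THBS2 proteins form trimers and carry type 1 repeats, while THBS3 and THBS4 proteins form pentamers that lack those repeats. In mammals THBS1 releases TGF-beta from its latent complex, and THBS1 and THBS2 restrain blood vessel growth through the receptor CD36. Fibroblasts, vessel walls, platelets, tendon and muscle are known sources in mammals, and in zebrafish a Thbs4 protein is needed where muscle attaches to tendon matrix. In bulk samples, more cells that make an mRNA and more of that mRNA per cell cannot be told apart.

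All 8 members passed the filter on low counts. Both THBS1 and both THBS4 genes had more mRNA in every LRE library than in any IEC library. Counting THBS3 ENSDARG00000077641, whose LRE libraries were all below, the groups of 5 of the 8 members lay apart, as did those of 26.8% of the 20979 genes tested (2717 with LRE above and 2903 with LRE below). Of the tested genes 2.30% were called higher in LRE, as were 4 of the 8 members. A call was an adjusted p under 0.05 from edgeR's quasi-likelihood test. No member was called lower, against 0.910% of all genes. The 483 genes called higher and 191 called lower became 789 and 367 under the replicate block, a fit with the library number as a term, which left the members' counts as they were. The adjusted p-values on which the family was selected ran from 0.0145 to 0.0375 in the 4 called members (edgeR), the next member having 0.502; the selection fixed them, so they are no test of the family. The median log2 fold change was 1.16 over the members and -0.06 over all tested genes.

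**Figure D1:**
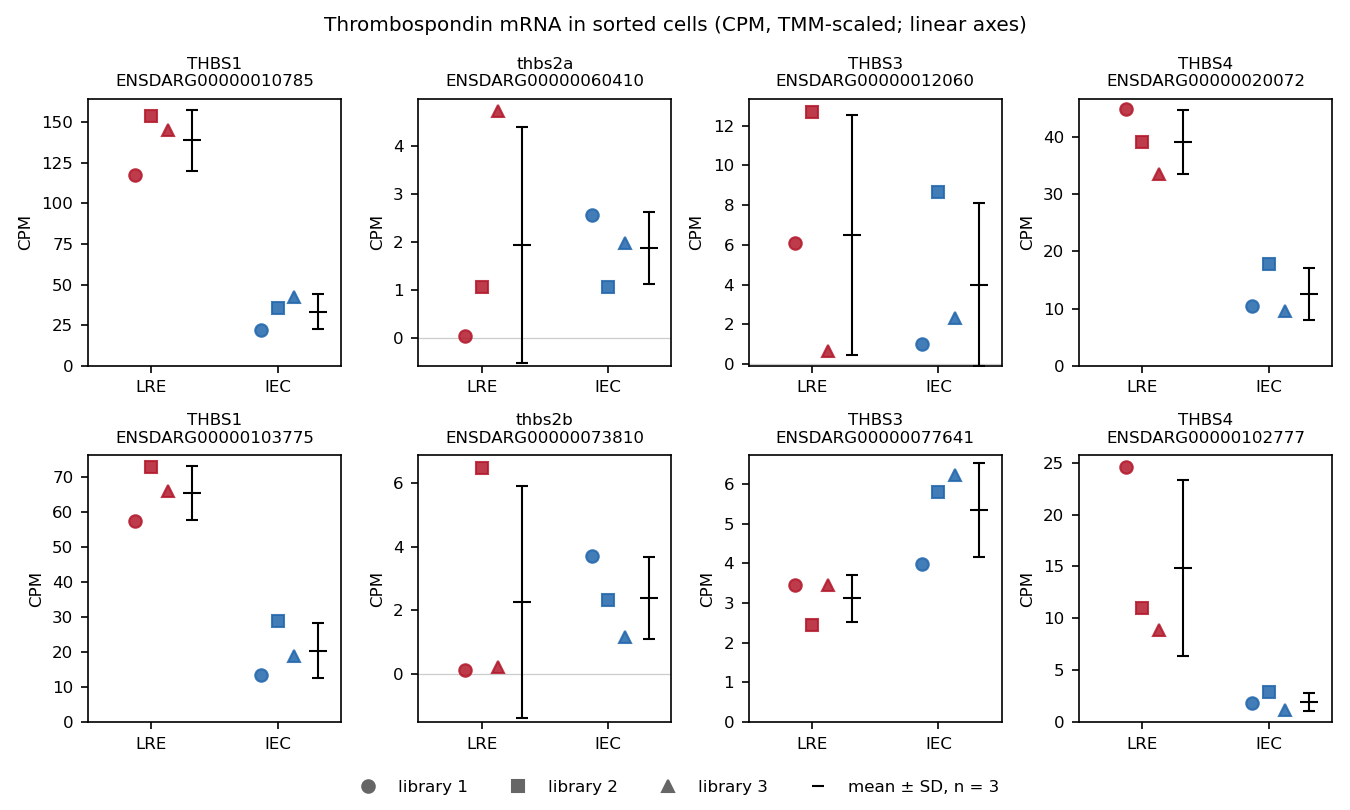
CPM (TMM-scaled) of each thrombospondin gene in the 3 LRE and 3 IEC libraries, with marker shapes for the library number and bars for mean ± SD (n = 3). Both THBS1 and both THBS4 genes are separated between groups, while thbs2a, thbs2b and THBS3 ENSDARG00000012060 overlap.

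THBS1 encodes a trimeric thrombospondin released by platelets and matrix-forming cells in mammals, and both of its genes were higher in all 3 LRE libraries. THBS1 ENSDARG00000010785 had 3443, 7760 and 6689 counts in LRE libraries 1, 2 and 3, against 691, 2493 and 2564 counts in IEC libraries 1, 2 and 3. Scaled, it stood at 117.6, 153.5 and 145.2 CPM in LRE and at 21.7, 35.8 and 42.4 CPM in IEC. On this TMM scale the lowest LRE library was above the highest IEC library by a wide margin, and the LRE libraries differed among themselves by no more than 1.30-fold. On plain totals the margin was smaller, with 81.4 CPM in LRE library 1 and 59.4 CPM in IEC library 3. Means were 138.8 ± 18.8 CPM in LRE and 33.3 ± 10.6 CPM in IEC (SD, n = 3 each), with a log2 fold change of 2.06 ± 0.32 (SE). That fold change was higher than those of 95.6% of tested genes.

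The second THBS1 gene, ENSDARG00000103775, had 57.5, 73.1 and 66.0 CPM in LRE libraries 1, 2 and 3 and 13.5, 28.9 and 19.0 CPM in IEC libraries 1, 2 and 3. Library 2 was the highest of each group, and the groups did not overlap. Its means were 65.5 ± 7.84 CPM in LRE and 20.5 ± 7.79 CPM in IEC (SD, n = 3 each; log2 fold change 1.68 ± 0.33, SE). Of the counts on both THBS1 genes, ENSDARG00000010785 took 67.2%, 67.7% and 68.7% in LRE libraries 1, 2 and 3 and 61.6%, 55.4% and 69.1% in IEC libraries 1, 2 and 3. The shares of the LRE libraries lay inside the range of the IEC libraries. Reads that 2 genes of a pair share may have been dropped or split in the counting.

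The genes of THBS2, the other trimeric thrombospondin, were near the limit of detection in some LRE libraries. For thbs2a (ENSDARG00000060410) 1, 53 and 218 counts were found in LRE libraries 1, 2 and 3, and 82, 74 and 120 counts in IEC libraries 1, 2 and 3. For thbs2b (ENSDARG00000073810) there were 3, 328 and 10 counts in LRE and 118, 161 and 69 counts in IEC. Each of them was high in a different LRE library, thbs2a in library 3 with 4.73 CPM and thbs2b in library 2 with 6.49 CPM, and LRE library 1 was the lowest for both. The IEC libraries spanned 1.06 to 2.57 CPM for thbs2a and 1.14 to 3.70 CPM for thbs2b, inside the range of the LRE libraries. The log2 fold changes were 0.05 ± 1.26 for thbs2a and -0.06 ± 1.36 for thbs2b (SE), so their direction was not measurable with these libraries.

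THBS3 encodes a pentameric thrombospondin known from bone and cartilage in mammals, and its 2 genes had fold changes of opposite sign, neither of them called. THBS3 ENSDARG00000012060 had 6.08, 12.7 and 0.673 CPM in LRE libraries 1, 2 and 3 and 1.04, 8.65 and 2.33 CPM in IEC libraries 1, 2 and 3. Both libraries numbered 2 were the highest of their group, and the highest exceeded the lowest 18.9-fold within LRE and 8.36-fold within IEC. The groups overlapped (log2 fold change 0.69 ± 1.04, SE). THBS3 ENSDARG00000077641 had 3.45, 2.43 and 3.45 CPM in LRE and 3.98, 5.79 and 6.22 CPM in IEC. It was the only member whose LRE libraries were all below its IEC libraries. Its log2 fold change was -0.78 ± 0.51 (SE), and with CPM of plain totals its groups overlapped.

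THBS4, a pentameric thrombospondin of tendon, muscle and nerve in mammals, included the gene with the largest fold change of the 8. THBS4 ENSDARG00000102777 had 719, 557 and 410 counts in LRE libraries 1, 2 and 3, against 57, 199 and 68 counts in IEC libraries 1, 2 and 3. Scaled, these were 24.6, 11.0 and 8.90 CPM in LRE and 1.79, 2.86 and 1.13 CPM in IEC. LRE library 1 was more than 2 times as high as the other LRE libraries, and all LRE libraries were above all IEC libraries. The log2 fold change was 2.94 ± 0.58 (SE), or 2.37 ± 0.52 without LRE library 1, and 285 tested genes had one at least as large.

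THBS4 ENSDARG00000020072 had 44.9, 39.1 and 33.5 CPM in LRE libraries 1, 2 and 3 and 10.4, 17.7 and 9.56 CPM in IEC libraries 1, 2 and 3, again without overlap. Means were 39.2 ± 5.67 CPM in LRE and 12.6 ± 4.50 CPM in IEC (SD, n = 3 each; log2 fold change 1.64 ± 0.33, SE). Its counts were 1.83, 3.55 and 3.77 times those of ENSDARG00000102777 in the LRE libraries and 5.82, 6.21 and 8.50 times in the IEC libraries. The balance within the THBS4 pair was therefore shifted toward ENSDARG00000102777 in all 3 LRE libraries. The difference between the log2 fold changes of the 2 genes was -1.30.

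**Figure D2:**
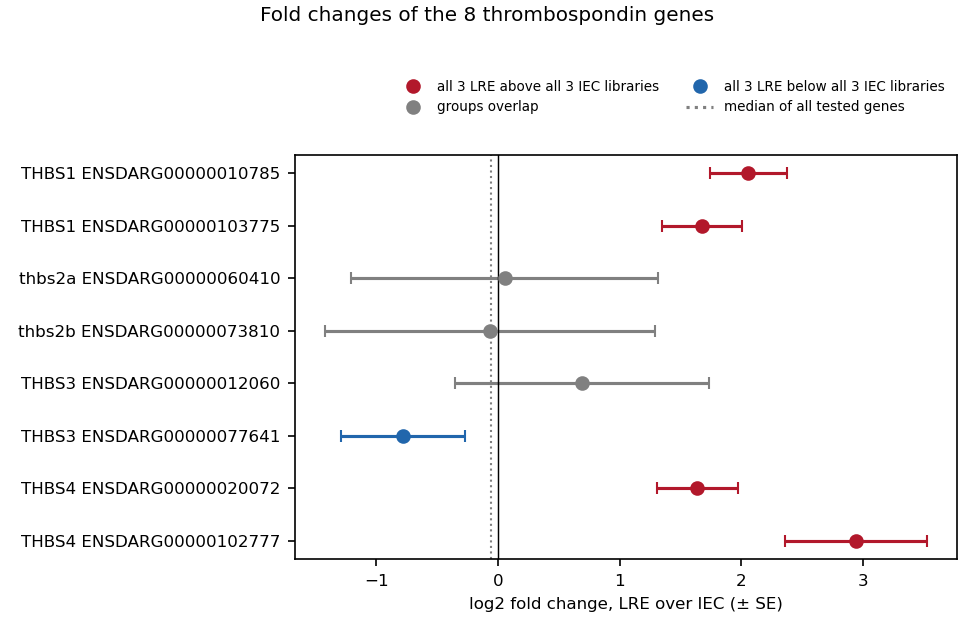
Log2 fold change of LRE over IEC with its standard error (edgeR, 3 libraries each) for the 8 thrombospondin genes, coloured by whether the libraries of the groups lay apart. Values run from -0.78 for THBS3 ENSDARG00000077641 to 2.94 for THBS4 ENSDARG00000102777, and the dotted line marks the median of all tested genes, -0.06.

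The 4 calls depended on single libraries and on the scaling. Their number fell to 1 without IEC library 1, 2 without IEC library 2, 1 without IEC library 3, 1 without LRE library 1, 1 without LRE library 2 and 0 without LRE library 3. It was 0 when libraries were scaled by totals alone, which shifted the median over all genes by -0.40 on the log2 scale, and 1 without both libraries numbered 1. Both THBS1 and both THBS4 genes had a positive log2 fold change in each of 16 fits, which share most libraries. It ranged from 1.60 to 2.24 for THBS1 ENSDARG00000010785, 1.23 to 1.96 for THBS1 ENSDARG00000103775, 1.18 to 1.92 for THBS4 ENSDARG00000020072 and 2.32 to 3.29 for THBS4 ENSDARG00000102777.

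**Figure D3:**
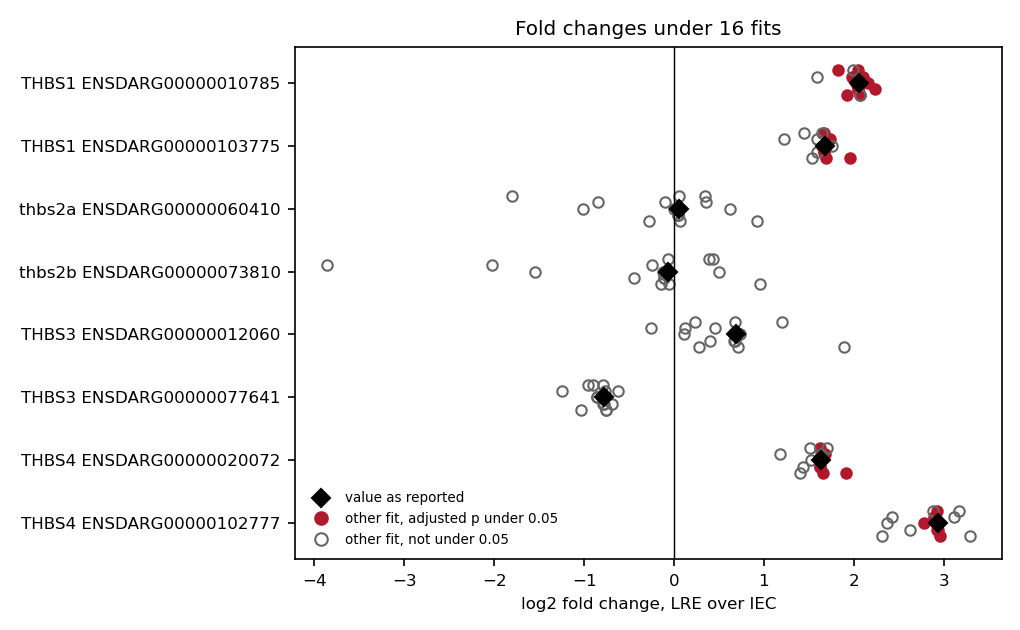
Log2 fold change (LRE over IEC) of each thrombospondin gene under 16 fits: diamonds are the values reported, filled circles other fits with an adjusted p under 0.05, open circles those without. The THBS1 and THBS4 genes stay above 0, while thbs2a and thbs2b cross it.

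Across the 6 libraries the 4 higher genes followed each other closely. Pearson's r of log2 CPM was 0.968 between the 2 THBS1 genes and 0.974 between the 2 THBS4 genes, and from 0.846 to 0.958 between a THBS1 and a THBS4 gene. These values describe 6 libraries whose groups lie apart, so the group difference alone gives high values. THBS3 ENSDARG00000077641 ran against them, at -0.696 to -0.749. The genes most like THBS1 ENSDARG00000010785, the member with the highest mean CPM, were the transporter genes slc22a7b.3 (0.998), SLC4A4 (0.997) and slc51a (0.997), out of 8628 other genes with a symbol and at least 10 CPM on average. SLC4A4 encodes a sodium bicarbonate cotransporter and slc51a a subunit of the basolateral bile acid transporter. The genes most like THBS4 ENSDARG00000102777, the member with the largest fold change, were btr12 (0.995), MFSD4A (0.993) and ENTPD6 (0.993). MFSD4A had 53.8, 16.9 and 13.5 CPM in LRE libraries 1, 2 and 3 and 0.565, 2.66 and 0.529 CPM in IEC libraries 1, 2 and 3, the same order of libraries within LRE as the THBS4 gene.

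Receptors of thrombospondins showed no call in either direction. Of 33 tested genes for receptors and surface partners, 0 passed (edgeR; 6 had an unadjusted p under 0.05, as had 3562 of all tested genes), while 4 passed with DESeq2, 4 with the replicate block, 1 with limma voom and 2 without LRE library 1. Of all 20979 tested genes edgeR called 2.30% higher and 0.910% lower. DESeq2 called 1245 of them higher and 819 lower, the replicate block 789 and 367, and limma voom 606 and 290. Their median log2 fold change was 0.20, but its sign depended on the setting: it was -0.29 with totals alone, -0.098 without IEC library 1, -0.047 without IEC library 3, -0.17 without LRE library 2 and 0.37 without IEC library 2. In 4 of the 33 all LRE libraries lay above all IEC libraries and in 2 below, while the groups of 26.8% of all tested genes lay apart in either direction. The most abundant, the syndecan gene sdc4, had 898, 1168 and 883 CPM in LRE libraries 1, 2 and 3 and 913, 1183 and 915 CPM in IEC libraries 1, 2 and 3. CD36, picked out after its values were seen because it is the classical THBS1 receptor, had 58.5, 45.0 and 109.7 CPM in LRE and 122.9, 105.2 and 239.5 CPM in IEC. Its groups overlapped, and its log2 fold change of -1.13 ± 0.44 (SE) was not called (edgeR adjusted p = 0.231). By library number, however, its ratio of LRE to IEC was 0.476, 0.428 and 0.458, and with the replicate block it was called lower (-1.14 ± 0.19, SE; edgeR adjusted p = 0.0294). The letter rule used for paralogs also took in 2 genes named LRP1B, a receptor other than LRP1. CD47 is not analysed here.

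Genes of TGF-beta signalling, the pathway that THBS1 can activate, gave 0 calls among 31 tested members with edgeR (3 at an unadjusted p under 0.05), 0 with limma voom, 2 with DESeq2 and 2 with the replicate block. Of all tested genes edgeR called 2.30% higher and 0.910% lower, and the other fits called the numbers given with the receptors. The median log2 fold change was 0.31, against 0.015 with totals alone, 0.17 with the replicate block, 0.17 without IEC library 1, 0.65 without LRE library 1, 0.18 without LRE library 2 and 0.093 without LRE library 3. In 4 of the 31 all LRE libraries lay above all IEC libraries and in 1 below, beside 26.8% of all tested genes in either direction. Their summed level was 709, 891 and 664 CPM in LRE libraries 1, 2 and 3 and 420, 656 and 537 CPM in IEC libraries 1, 2 and 3, so the lowest LRE library was barely above the highest IEC library. The most abundant over all 6 libraries was skilb, a SKI-type co-repressor gene, with 97.9, 141.2 and 112.4 CPM in LRE and 49.8, 112.0 and 78.0 CPM in IEC, groups that overlap. CCN2, a matrix gene widely used as a TGF-beta target and picked out after its values were seen, had 129.7, 88.9 and 54.6 CPM in LRE and 33.9, 38.1 and 27.2 CPM in IEC. Its LRE libraries were all above its IEC libraries, and it missed the threshold (log2 fold change 1.46 ± 0.35, SE; edgeR adjusted p = 0.0658), which it passed with the replicate block (1.39 ± 0.25, SE; adjusted p = 0.0360) and with DESeq2 (adjusted p = 0.00590).

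Genes for matrix proteins that bind thrombospondins, and for proteases that cut them, had the highest median among the 5 groups of related genes followed here. Of 42 tested genes, 2 passed, both higher, and 40 did not, while the median log2 fold change was 1.04 (0.62 with totals alone). Of all tested genes 2.30% were called higher and 0.910% lower. With the replicate block 7 passed, with DESeq2 11, with limma voom 4, without LRE library 1 3, without LRE library 3 1, and without any other single library or with totals alone 0. Of all 20979 tested genes the replicate block called 789 higher and 367 lower, DESeq2 1245 and 819, and limma voom 606 and 290. In 19 of them all LRE libraries lay above all IEC libraries and in 0 below, where the groups of 26.8% of all tested genes lay apart in either direction. The fibrillar collagen gene COL2A1 ENSDARG00000011407 rose by 1.53 ± 0.32 on the log2 scale (SE, edgeR adjusted p = 0.0422), with 111.7, 158.7 and 187.5 CPM in LRE libraries 1, 2 and 3 and 37.6, 63.8 and 56.7 CPM in IEC libraries 1, 2 and 3. ADAMTS1, a secreted protease with type 1 repeats, rose by 1.66 ± 0.36 (SE, edgeR adjusted p = 0.0467), with 43.1, 24.9 and 45.0 CPM in LRE and 8.31, 12.4 and 15.1 CPM in IEC. The call of COL2A1 ended without any IEC library and without LRE library 2 or 3 (adjusted p up to 0.155), that of ADAMTS1 without any 1 of the 6 libraries (up to 0.171), and both with scaling by totals alone (0.323 and 0.307).

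Among 32 tested genes of other proteins that carry thrombospondin type 1 repeats, or adjoin them in function, 1 was higher and 1 lower, both with the symbol SPON1 (spondin 1). Of all tested genes 2.30% were called higher and 0.910% lower. In 32 genes, 1 call each way is close to those shares, so the values below describe the 2 SPON1 genes and not the group. SPON1 ENSDARG00000010029 had 15.6, 10.9 and 8.20 CPM in LRE libraries 1, 2 and 3 and 0.471, 1.25 and 0.811 CPM in IEC libraries 1, 2 and 3 (log2 fold change 3.76 ± 0.58, SE; edgeR adjusted p = 0.0137). SPON1 ENSDARG00000023694 had 43.1, 24.2 and 22.2 CPM in LRE and 71.9, 95.4 and 129.3 CPM in IEC (-1.73 ± 0.36, SE; edgeR adjusted p = 0.0410). The 2 SPON1 genes were thus called in opposite directions. The higher one lost its call without IEC library 3 (0.0726) and with scaling by totals alone (0.0646), and the lower one without any IEC library and without LRE library 2 or 3 (up to 0.148). The lower one also missed the threshold under the replicate block (0.0534).

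Genes for folding, glycosylation and export of secreted proteins, through which thrombospondins pass in the endoplasmic reticulum, gave 0 calls in 25 tested genes with edgeR (3 at an unadjusted p under 0.05), 0 with limma voom and 3 with DESeq2 (1 higher and 2 lower). Of all 20979 tested genes edgeR called 2.30% higher and 0.910% lower, while DESeq2 called 1245 higher and 819 lower. The chaperone gene HSPA5, the most abundant of them, had 540.5, 1967 and 936 CPM in LRE libraries 1, 2 and 3 and 549, 2845 and 1172 CPM in IEC libraries 1, 2 and 3. Libraries numbered 2 were the highest of each group, and the groups overlapped (log2 fold change -0.41 ± 0.67, SE).

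Genes listed as markers of several cell types outside the intestinal epithelium had reads. With TMM scaling the sums of some of these lists, though not of leukocyte markers, were higher in LRE, as the THBS1 and THBS4 genes were. Whether each marker is specific to its cell type in these libraries was not tested. Fibroblast markers (20 matched and tested genes, 8 of them also among the matrix genes above) summed to 3278, 4090 and 5471 CPM in LRE libraries 1, 2 and 3 and to 914, 1884 and 1705 CPM in IEC libraries 1, 2 and 3. In 10 of the 20 all LRE libraries were above all IEC libraries and in 0 below, beside 26.8% of all tested genes in either direction. Of the 20, 0 were called by edgeR (9 had an unadjusted p under 0.05), against 2.30% of all tested genes called higher, while 7 were called higher with DESeq2, 2 with limma voom and 5 with the replicate block. Those fits have their own shares: of all 20979 tested genes DESeq2 called 1245 higher, limma voom 606 and the replicate block 789. The 3 most abundant took 68.6% to 83.1% of the sum. The type I collagen gene col1a1a had 1565, 1331 and 1952 CPM in LRE and 302.5, 807 and 759 CPM in IEC (log2 fold change 1.38 ± 0.44, SE; edgeR adjusted p = 0.150). COL1A2, its partner chain, had 670.1, 935 and 1335 CPM in LRE and 136, 358 and 328 CPM in IEC (1.84 ± 0.46, SE; edgeR adjusted p = 0.0751). With CPM of plain totals the groups of COL1A2 overlapped and those of col1a1a did not. The fibroblast sum lay apart with TMM scaling only. With the TMM factors taken out, its groups overlapped, LRE library 1 being below IEC libraries 2 and 3. Every fibroblast marker had reads in every library except FOXF1, a mesenchymal transcription factor gene picked out later because it had 0 in LRE library 1. In LRE library 1, where that sum was 3278 CPM, thbs2a had 1 count and thbs2b 3 counts.

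With TMM scaling the sums of 5 other marker lists also lay above every IEC library in each LRE library. Endothelial markers (17 genes, 17 tested) summed to 53.2 to 61.0 CPM in LRE and 17.8 to 41.2 CPM in IEC, with the transcription factor gene FLI1 and the receptor gene kdrl the most abundant. Tendon and cartilage markers (17 genes, 16 tested) summed to 581 to 975 CPM in LRE and 275 to 467 CPM in IEC. EdgeR called 2 of them higher, COL2A1 ENSDARG00000011407 among them, and 0 lower, beside 2.30% and 0.910% of all tested genes. The COL2A1, COL9A1, col9a1b and MATN1 genes of this list are also among the matrix genes above. Means of COL2A1 ENSDARG00000069093 and COL2A1 ENSDARG00000011407 were 313.8 and 152.6 of the 778.8 CPM summed in LRE. In IEC they were 142.8 and 52.7 of the 371.4 CPM summed. Neuron and glia markers summed to 579 to 765 CPM in LRE and 390 to 446 CPM in IEC, led by the myelin genes mbpa and mbpb. EdgeR called 1 of 16 tested neuron and glia markers and 1 of 10 epidermal markers higher, and 0 of 17 endothelial or 7 notochord markers. DESeq2, limma voom and the replicate block called 7, 2 and 2 neuron and glia markers higher. For epidermal markers they called 4, 3 and 3 higher, and for tendon and cartilage markers 4, 3 and 4. Each of these fits called at most 1 marker of a list lower. Of all 20979 tested genes they called 1245, 606 and 789 higher. Epidermal markers summed to 13724 to 22158 CPM in LRE and 9058 to 12267 CPM in IEC. Their 2 most abundant genes ran opposite ways: the keratin gene krt4 had 8702 to 12032 CPM in LRE and 4375 to 7264 CPM in IEC, and icn had 897 to 1130.3 CPM in LRE and 1739 to 5719.8 CPM in IEC. Means of krt4 were 10628 of the 17955 CPM summed in LRE and 5920 of the 11005 CPM summed in IEC. Notochord markers summed to 128 to 216 CPM in LRE and 92.1 to 118 CPM in IEC, with CAV1 and the collagen gene COL9A2 the most abundant. These sums use TMM scaling, with factors of 0.692 in LRE library 1 and 1.32 and 1.40 in IEC libraries 2 and 3. With the factors taken out, the groups of all 5 sums overlapped. Of the genes leading these 5 lists, FLI1, both COL2A1 genes, mbpb, krt4 and COL9A2 lay apart with TMM scaling but overlapped on plain totals. On plain totals mbpa stayed above and icn below, while kdrl and CAV1 overlapped with either scaling. Both THBS1 and both THBS4 genes stayed above on plain totals, THBS1 ENSDARG00000103775 only narrowly. Its lowest LRE library had 39.7 CPM and its highest IEC library 38.0 CPM on that scale. The same limits were 81.4 and 59.4 CPM for THBS1 ENSDARG00000010785. They were 31.0 and 23.4 CPM for THBS4 ENSDARG00000020072, and 9.10 and 3.77 CPM for THBS4 ENSDARG00000102777. Thrombocyte markers, of interest because platelets store THBS1 in mammals, summed to 49.1 to 85.2 CPM in LRE and 22.1 to 65.1 CPM in IEC, with overlap, and the platelet integrin gene itga2b, picked out later as a defining marker, was at 0 in LRE library 3 and IEC library 1. Their 2 most abundant genes were FGB, a fibrinogen chain gene, and f13a1b. FGB had means of 43.9 of the 63.1 CPM summed in LRE and 21.2 of the 41.7 CPM summed in IEC. The fibrinogen genes fga and FGG were counted among the hepatocyte markers. Skeletal muscle markers (19 genes, 18 tested) summed to 646, 1431 and 1705 CPM in LRE libraries 1, 2 and 3 and 252, 561 and 811 CPM in IEC libraries 1, 2 and 3. Of the 18, edgeR called 0, and 7 had an unadjusted p under 0.05, as had 3562 of all 20979 tested genes. DESeq2 called 2 of the 18 higher, limma voom 0 and the replicate block 6. Of all tested genes these fits called 1245, 606 and 789 higher, and edgeR called 2.30% higher. The skeletal muscle sums overlapped between groups, yet each LRE library was above the IEC library of its number, by 2.56, 2.55 and 2.101 times, and the ratio of means was 2.33. Hepatocyte sums likewise overlapped and were 2.47, 2.58 and 1.67 times higher by number. Smooth muscle sums also overlapped, with 442 to 615 CPM in LRE and 342 to 517 CPM in IEC, as did those of exocrine pancreas, erythrocytes and best4 cells. Leukocyte markers ran the other way, with 128 to 211 CPM in LRE and 236 to 653 CPM in IEC, as did goblet and enteroendocrine markers.

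The ratio of an LRE library to the IEC library of the same number set these levels side by side. For the fibroblast sum it was 3.58, 2.17 and 3.21 in libraries 1, 2 and 3. For THBS1 ENSDARG00000103775 it was 4.26, 2.53 and 3.47, and for THBS4 ENSDARG00000020072 it was 4.31, 2.204 and 3.51. Both genes had ratios close above those of the fibroblast sum. For THBS1 ENSDARG00000010785 the ratio was 5.43, 4.29 and 3.42, and for THBS4 ENSDARG00000102777 it was 13.7, 3.85 and 7.91. The order of pairs was that of the fibroblast sum for THBS1 ENSDARG00000103775 and for both THBS4 genes, including ENSDARG00000102777, whose ratios were well above it. The thrombocyte (2.22, 1.31 and 1.45) and best4 (1.46, 0.642 and 0.811) sums had that order too. THBS1 ENSDARG00000010785 had instead the order of the tendon and cartilage sum (2.84, 2.09 and 1.56) and the endothelial sum (3.07, 2.09 and 1.29). The skeletal muscle sum (2.56, 2.55 and 2.101) and the erythrocyte sum (2.45, 1.26 and 0.734) had that order as well. With so few pairs such orders coincide easily, and their meaning was not tested. The LRE marker sum, in contrast, had ratios of 20.8, 9.57 and 22.6, well above those of any thrombospondin gene in each pair.

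**Figure D4:**
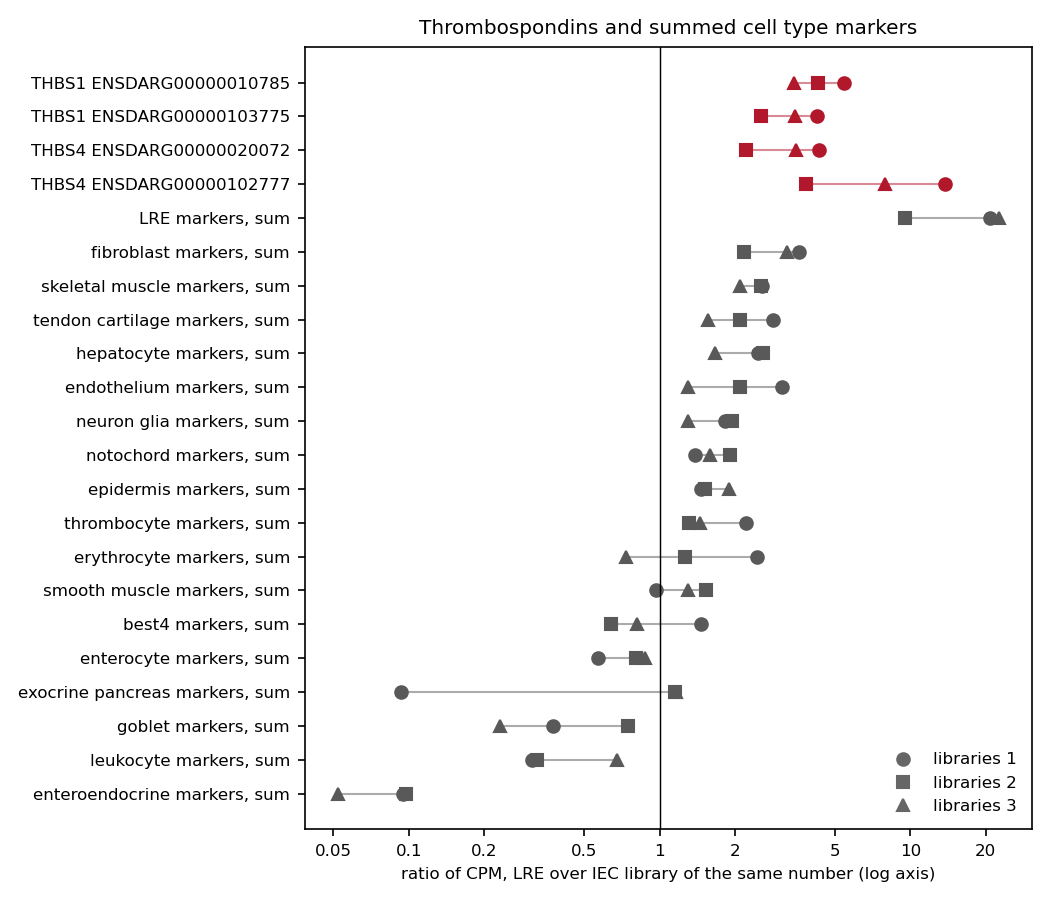
Ratio of CPM in an LRE library to that in the IEC library of the same number (log axis) for the 4 higher thrombospondin genes and for the sums of 18 marker lists, ordered by ratio of means. The fibroblast sum (2.17 to 3.58) has the highest ratio of means after the LRE sum, which reaches 22.6.

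Levels were then expressed per 1000 CPM of the fibroblast sum, a comparison chosen after the values were seen. THBS1 ENSDARG00000103775 stood at 17.5, 17.9 and 12.1 in LRE libraries 1, 2 and 3 and at 14.8, 15.3 and 11.2 in IEC libraries 1, 2 and 3, and THBS4 ENSDARG00000020072 at 13.7, 9.56 and 6.13 in LRE and 11.4, 9.42 and 5.61 in IEC. Both overlapped between groups on this scale, with a ratio of means of 1.15 and 1.11, and were lowest in library 3 of each group. By library number each LRE library was still above its IEC library, by 1.19, 1.17 and 1.082 times for THBS1 ENSDARG00000103775 and 1.20, 1.01 and 1.09 times for THBS4 ENSDARG00000020072. THBS1 ENSDARG00000010785 stood at 35.9, 37.5 and 26.5 in LRE and at 23.7, 19.0 and 24.9 in IEC, still without overlap, with a ratio of means of 1.48. THBS4 ENSDARG00000102777 stood at 7.50, 2.69 and 1.63 in LRE and at 1.96, 1.52 and 0.660 in IEC. Its groups overlapped, since LRE library 3 was below IEC library 1, although each LRE library exceeded the IEC library of its number. THBS3 ENSDARG00000077641 stood at 1.05, 0.595 and 0.631 in LRE and 4.36, 3.07 and 3.65 in IEC.

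**Figure D5:**
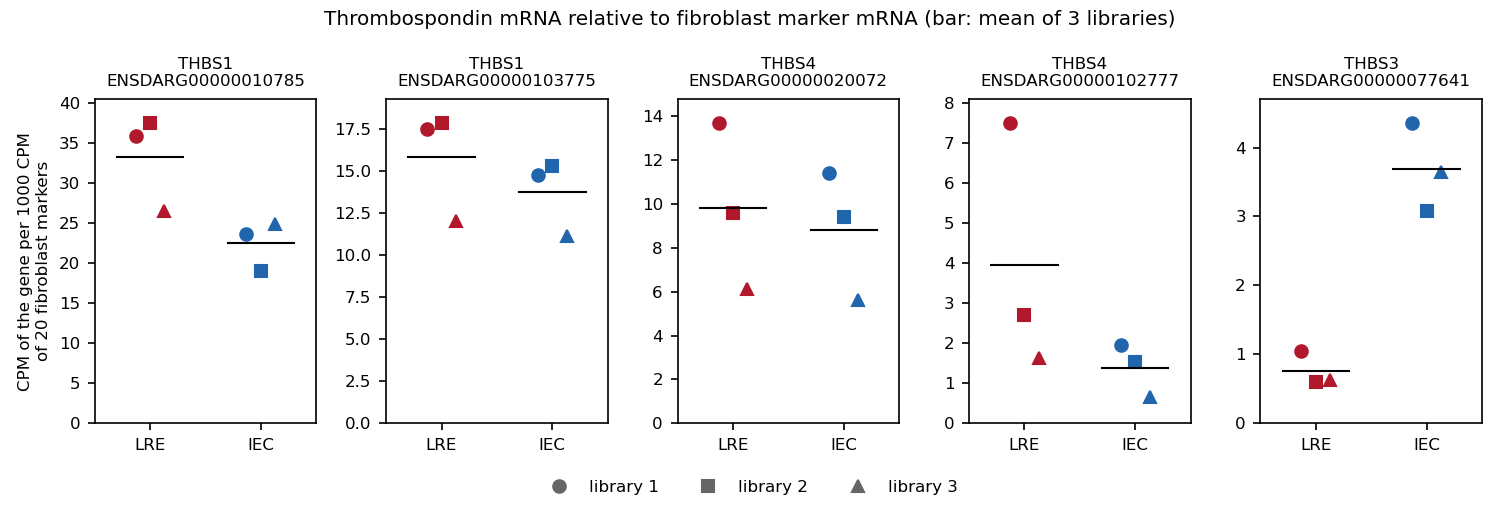
CPM of 5 thrombospondin genes per 1000 CPM of 20 summed fibroblast markers in the 3 LRE and 3 IEC libraries (shapes give the library number, bars the mean). THBS1 ENSDARG00000103775 and THBS4 ENSDARG00000020072 overlap between groups on this scale, and THBS1 ENSDARG00000010785 does not.

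Against the tendon and cartilage sum, all 4 higher genes kept their groups apart, with ratios of means of 2.07 for THBS1 ENSDARG00000010785, 1.62 for THBS1 ENSDARG00000103775, 1.53 for THBS4 ENSDARG00000020072 and 3.71 for THBS4 ENSDARG00000102777. Against the endothelial sum they also stayed apart, at 2.13, 1.58, 1.47 and 3.53 in the same order. Against the enterocyte sum the groups were apart with LRE above, at 5.49, 4.19, 4.17 and 10.6. Against the LRE marker sum they were apart with LRE below, at 0.275, 0.215, 0.203 and 0.468. The enterocyte sum was lower in LRE, and the LRE marker sum had higher ratios by library number than any of these genes. Both directions were thus fixed beforehand and are no test of which cells made the mRNA. The 4 genes also had higher ratios by library number than the fibroblast, the tendon and cartilage, and the endothelial sums. A higher LRE level by number was therefore set on those scales too, and they are no such test either. No other marker sum was used as a scale. Those left out include the skeletal muscle and hepatocyte sums, whose ratios of means were 2.33 and 2.09. The part of cells other than enterocytes in the THBS1 and THBS4 levels was not tested. The share of counts from mitochondrial genes with an MT symbol was 21.7%, 11.4% and 6.19% in LRE libraries 1, 2 and 3 and 8.73%, 4.71% and 4.18% in IEC libraries 1, 2 and 3. Its part in these values was not tested either.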

How the data were processed

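The authors deposited whole-number counts per Ensembl gene, 1 table per library, with no normalization found in them. HISAT2, HTSeq and GRCz10 are named per the submitters' processing notes. Their versions, the annotation release and the handling of strand or overlapping genes were not given in the sources used. Libraries came from an ultra low input kit, per the labels' protocols. Total counts ranged from 39590129 to 53250871; no molecular identifiers are named, so counts may include amplification copies. Symbols came from a table covering 27000 of 35117 IDs; 0 rows named no gene. No sequences or coordinates of these genes were used here.

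Groups came from sample titles. The LRE-IEC contrast used edgeR 4.0.16 under R 4.3.3 (quasi-likelihood F test, TMM factors 0.692 to 1.40, filterByExpr with minimum count 10 and minimum total 15, 20979 genes). Calls needed a Benjamini-Hochberg adjusted p under 0.05. SE is the absolute log2 fold change divided by the root of F. Ratios are not on a log scale and use no offset; r used log2(CPM + 0.5). The scripts were tested on simulated counts that varied less between libraries than these data (biological coefficient of variation 0.651). The simulation also had no built-in difference in composition between libraries. It checks that the scripts run as meant and cannot show how well they recover changes here. Alternatives were RLE and upper-quartile factors, totals alone, 2 other filters, DESeq2 1.42.0, limma 3.58.1 voom, the replicate block, leaving out each library and, added after seeing the data, leaving out both libraries numbered 1. As a check of pairing, each library's deviations from its group mean were compared across genes. Pearson's r was 0.268, 0.332 and 0.258 for equal numbers and -0.232 to -0.0412 for unequal ones. Deviations within a group cancel out, which by itself lowers some of these values. Equal numbers were treated as pairs only in the ratios by library number and in the replicate block. The main edgeR fit, the source of every call and fold change with no other fit named, took the libraries as unpaired. The labels do not state a pairing.

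Members and lists were chosen with earlier results of these data known. Of 334 listed symbols, 38 were not matched; a symbol matched in either case, alone or with a paralog letter a or b. Named were all members; up to 6 passing genes of each pathway list, or else its most abundant gene; the 2 most abundant genes of marker lists; and the 3 genes most like the most abundant and the most changed member. Marker lists described by their sum alone have their 2 genes left unprinted. A gene outside this rule is marked in the text as picked out later.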

Additional observations from a re-analysis of the deposited data

How the results depend on the processing

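The number of thrombospondin genes called higher was 4 with RLE or upper-quartile factors, without a filter, with the filter of at least 1 CPM in 3 libraries, with DESeq2, with limma voom and with the replicate block; 0 with totals alone; 1 without both libraries numbered 1; and 0 to 2 when single libraries were left out. None was called lower in any of the 16 fits. Over all genes, 483 were higher and 191 lower. They became 137 and 182 with totals alone, 1245 and 819 with DESeq2, 789 and 367 with the replicate block, 290 lower with limma voom and 251 higher without both libraries numbered 1. Single leave-outs gave 146 to 419 higher and 28 to 261 lower. The pairing by number ended no call of a thrombospondin gene.

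Uncalled log2 fold changes that changed sign were those of thbs2a (-0.094 with totals alone, -1.01 with limma voom, -0.85 with the replicate block, -1.80 to 0.63 without single libraries), thbs2b (-3.86 to 0.50 without single libraries, 0.95 without both libraries numbered 1), THBS3 ENSDARG00000012060 (-0.26 to 1.90), sdc4 (-0.17 to 0.056) and HSPA5 (-1.04 to 0.37), the last 3 without single libraries. The median of the receptor genes also changed sign, from -0.29 with totals alone to 0.37 without IEC library 2. So did that of the genes with type 1 repeats, which was 0.48 in the main fit and -0.29 with limma voom. It was -0.14 with the replicate block, -0.18 without LRE library 2 and -0.053 without LRE library 3. The median of the folding genes ran from -0.36 with totals alone to 0.012 with the filter of at least 1 CPM in 3 libraries. LRE library 1 had 1 and 3 counts of thbs2a and thbs2b at a total of 42321698, while IEC library 1 had 82 and 118 at 39590129. The cause of these changes was not tested.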
